A study of Mus musculus with 4 samples.

Results

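The sirtuin deacylases were followed through RNA-seq of 3T3-L1 cells in which the level of CACUL1 had been altered. The 6 genes Sirt1, Sirt2, Sirt3, Sirt5, Sirt6 and Sirt7 were taken by symbol from the 13085 genes in the tables, each from 1 row of RefSeq transcripts. The rule used symbols and no measured value, but the family was picked with earlier results of these data known. Sirt4, the remaining gene of the mouse family, was measured as well and is given only for comparison. The values are FPKM (fragments per kilobase, with the sample's mapped total as the denominator), a level per transcript length, so genes could be compared with each other.

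3T3-L1 is a murine preadipocyte line that accumulates lipid after an adipogenic hormone mixture. The study asked how CACUL1, a protein that it describes as a partner of SIRT1, acts on this differentiation. Stable lines had been made by plasmid transfection and drug selection of resistant colonies, and whether a line is a single clone or a pool is not given in the sources used here. FLAG cells carried the empty FLAG vector and FLAG-CACUL1 cells overexpressed FLAG-tagged CACUL1, both kept under G418. The sh-Luc cells expressed a short hairpin against luciferase and the sh-CACUL1 cells a hairpin against CACUL1, both selected with hygromycin B. All 4 lines received rosiglitazone (5 µM, an agonist of PPARγ) with IBMX (0.5 mM), dexamethasone (1 µg/ml) and insulin (5 µg/ml), and total RNA was taken on day 8. Each line gave 1 sample, so no difference below has a replicate check and none was tested. The lines were selected separately, and line, drug and vector cannot be told apart between a FLAG and an sh sample.

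Sirtuins remove acyl groups from lysines and use NAD as a cosubstrate, so that their activity follows the supply of NAD as well as their own amount. SIRT1, SIRT6 and SIRT7 act mainly in the nucleus, SIRT2 mainly in the cytosol, and SIRT3 and SIRT5 in mitochondria. In fat cells SIRT1 is known as a repressor of PPARγ, the receptor that drives adipogenesis, and SIRT2 as a deacetylase of FOXO1. Messenger RNA was measured here, and enzyme activity was not.

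The number of fragments was estimated from the steps between low FPKM values at 14300000 to 23900000 per sample, with sh-Luc 1.67 times as deep as the shallowest sample. Intervals below are 95% intervals for counting error at that estimated depth and say nothing about variation between cultures. Cacul1, the targeted gene, had 9.61 and 11.8 FPKM in FLAG and FLAG-CACUL1 and 10.25 and 5.39 FPKM in sh-Luc and sh-CACUL1. Its log2 ratio of FPKM + 1 was 0.27 in FLAG-CACUL1 against FLAG and -0.82 in sh-CACUL1 against sh-Luc. Of 10 adipocyte markers, all 10 passed 2-fold downward between FLAG and FLAG-CACUL1 and upward between sh-Luc and sh-CACUL1. Their summed level was 8541 FPKM in FLAG and 892 in FLAG-CACUL1, against 1721 in sh-Luc and 17818 in sh-CACUL1. In the same order of samples the 7 preadipocyte markers in the table summed to 4854, 6993, 3148 and 632 FPKM, most of it from Col1a1 and Col3a1, while Dlk1 and Thy1 were higher in sh-CACUL1 than in its control, at 4.19 and 4.41. Of 6 macrophage markers 3 were in the table and summed to between 2.91 and 68.3 FPKM, nearly all of it from Cd68 and Lyz2, and of 5 endothelial markers 2 were in the table and summed to under 1 FPKM in every sample. Adipocyte and preadipocyte marker levels thus differed alongside each sirtuin difference below, and their part in these was not tested. In such bulk samples fewer cells of a type and less RNA per cell cannot be told apart.

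The nuclear sirtuins showed 3 unlike profiles. Sirt1 (NM_019812 and NM_001159589, minus strand of chromosome 10 of GRCm38, 63319005 to 63381704) had 0.602 FPKM in FLAG and 2.24 in FLAG-CACUL1, against 2.69 in sh-Luc and 1.35 in sh-CACUL1. SIRT1 deacetylates histones and many transcription regulators, and its mRNA was low in all 4 lines. These levels rest on about 33, 122, 246 and 77 fragments, and between 15.9% and 28.3% of all genes lay below Sirt1 in a sample. The FLAG sample was the lowest one, 3.72-fold below FLAG-CACUL1 (interval 2.53 to 5.67) and 4.48-fold below sh-Luc (3.12 to 6.68). FLAG and sh-CACUL1, the samples with more adipocyte marker mRNA, both had less Sirt1 than FLAG-CACUL1 and sh-Luc. The same order of samples was seen in 4117 genes, 31.5% of all, and was looked for only after the values had been seen. No other sirtuin had it.

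The bases before the Sirt1 start are printed because Sirt1 was the gene that passed the cut-off in FLAG-CACUL1. They come from RefSeq on GRCm38.p6, chr10:63339051-63339285, minus strand, in lower case with motif matches in capitals. The 15 bases next to the RefSeq start at 63339035 are left out because a GENCODE exon covers them. In GENCODE the Sirt1 span reaches to 63381704, so the printed bases lie within that span. Distances are counted from that RefSeq start.

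Sirt1: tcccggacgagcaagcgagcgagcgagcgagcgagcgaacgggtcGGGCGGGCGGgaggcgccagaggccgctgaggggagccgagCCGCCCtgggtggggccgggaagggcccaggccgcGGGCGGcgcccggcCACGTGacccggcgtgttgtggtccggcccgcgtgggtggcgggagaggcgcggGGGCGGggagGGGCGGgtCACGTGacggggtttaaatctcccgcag

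The capitals mark 6 GC boxes (GGGCGG on either strand, of which the pair at 205 and 201 bases before the start overlap) and 2 E-boxes (CACGTG), at 115 and 43 bases before the start. A GC box was found in 32.7% of 32851 RefSeq windows of 250 bases, and an E-box in 6.02%. The whole Sirt1 window had 39 CpG, against a median of 6 over all windows, and 98.4% of windows had fewer. A match is a description of the letters and no evidence of binding.

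Sirt6 (NM_181586 and NM_001163430, minus strand of chromosome 10, 81621785 to 81627797) had 18.7 FPKM in FLAG and 12.0 in FLAG-CACUL1, against 16.1 in sh-Luc and 5.23 in sh-CACUL1. SIRT6 is bound to chromatin, where it deacetylates histone H3. The sh-CACUL1 sample stood below the other lines, 3.08-fold below sh-Luc (2.56 to 3.72) and 3.58-fold below FLAG (2.96 to 4.36). At about 139 fragments or more in each sample this exceeded counting error. Sirt7 (NM_153056, minus strand of chromosome 11, 120618372 to 120625240), a nucleolar sirtuin linked to transcription of ribosomal RNA genes, had 12.6 and 13.2 FPKM in FLAG and FLAG-CACUL1 and 16.2 and 15.7 FPKM in sh-Luc and sh-CACUL1. Its highest level was 1.29 times its lowest, the smallest spread of the 6 genes, and 89.8% of all genes had a wider range on the log2 scale. Sirt7 shares 124 exonic bases with Mafg on the same strand, so fragments from those bases may belong to either gene.

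Sirt2 (NM_001122765, NM_001122766 and NM_022432, plus strand of chromosome 7, 28766735 to 28788661), the cytosolic deacetylase, was the most abundant sirtuin mRNA in 4 of 4 samples. It had 50.7 FPKM in FLAG and 57.9 in FLAG-CACUL1, against 41.2 in sh-Luc and 21.7 in sh-CACUL1. Samples with the FLAG vector were close, while as deposited sh-CACUL1 was 1.90-fold below sh-Luc (1.72 to 2.09). The log2 ratio of FPKM + 1 was -0.89 as deposited. It was -0.53 after quantile normalization and -0.43 after median-of-ratios scaling, both outside its counting interval. Sirt2 made up 53.9%, 60.6%, 48.3% and 42.4% of the summed FPKM of the 6 genes in the same order. That sum was 94.1 FPKM in FLAG and 95.5 in FLAG-CACUL1, against 85.4 in sh-Luc and 51.2 in sh-CACUL1, so that the lowest total was in the line depleted of CACUL1. Nuclear Sirt1, Sirt6 and Sirt7 made up 33.9%, 28.8%, 41.0% and 43.4%.

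Of the mitochondrial sirtuins, Sirt3 (NM_001177804, NM_022433 and NM_001127351, minus strand of chromosome 7, 140863666 to 140882309) had 11.0 FPKM in FLAG and 10.1 in FLAG-CACUL1, against 6.92 in sh-Luc and 6.17 in sh-CACUL1. SIRT3 is the main deacetylase of the mitochondrial matrix, with SOD2 and IDH2 among its substrates. Both FLAG lines had more Sirt3 than both sh lines. The same held for Sirt2, and the reverse for Sirt5 and Sirt7. How many of all genes split in this way was not counted. FLAG exceeded sh-Luc 1.58-fold (1.31 to 1.90), and within each vector the interval of the ratio held 1. Sirt3 shares 342 exonic bases with Psmd13 and 418 with Ric8a on the opposite strand, and whether strand was used in counting is not given in the sources used here.

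Sirt5 (NM_178848, plus strand of chromosome 13, 43365496 to 43395203) was the lowest sirtuin mRNA in 4 of 4 samples. It had 0.504 FPKM in FLAG and 0.0566 in FLAG-CACUL1, against 2.17 in sh-Luc and 1.07 in sh-CACUL1. SIRT5 removes succinyl, malonyl and glutaryl groups. The levels correspond to about 10, 1, 73 and 22 fragments, and 1 fragment was worth 0.0501 FPKM in FLAG-CACUL1. The level there is therefore that of a single fragment, with an upper bound of 0.279 FPKM. Without a pseudocount it was 8.90-fold below FLAG, with an interval from 1.41 to 429 that leaves the size of the difference unknown. FLAG was 4.31-fold below sh-Luc (2.26 to 9.57). Sirt4, the lipoamidase and ADP-ribosyltransferase of the same compartment, had 3.95 and 4.58 FPKM in FLAG and FLAG-CACUL1 and 4.61 and 7.49 FPKM in sh-Luc and sh-CACUL1.

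The bases before the Sirt5 start are printed because Sirt5 had the widest ratio between samples, 38.4-fold between sh-Luc and FLAG-CACUL1, with an interval of 7.58 to 1745 since the lower level is about 1 fragment. They come from RefSeq on GRCm38.p6, chr13:43365285-43365495, plus strand, and stop before the first exon in GENCODE. The RefSeq start, from which distances are counted, is at 43365535, and the 39 bases before it, which are not printed, lie in that exon.

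Sirt5: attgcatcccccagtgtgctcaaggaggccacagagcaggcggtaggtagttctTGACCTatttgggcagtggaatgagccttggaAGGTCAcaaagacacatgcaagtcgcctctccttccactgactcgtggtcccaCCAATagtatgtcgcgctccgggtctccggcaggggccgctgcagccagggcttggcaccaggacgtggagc

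The capitals mark AGGTCA on either strand, a half-site for nuclear receptors, at 196 and 164 bases before the RefSeq start, and CCAAT on either strand at 111 bases. AGGTCA was found in 14.0% of all windows and CCAAT in 33.8%. A GC box lies in the bases not printed, 36 bases before the RefSeq start and so inside the GENCODE exon. The Sirt5 window held 13 CpG and no E-box, where the Sirt1 window held no AGGTCA and no CCAAT.

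**Figure D1:**
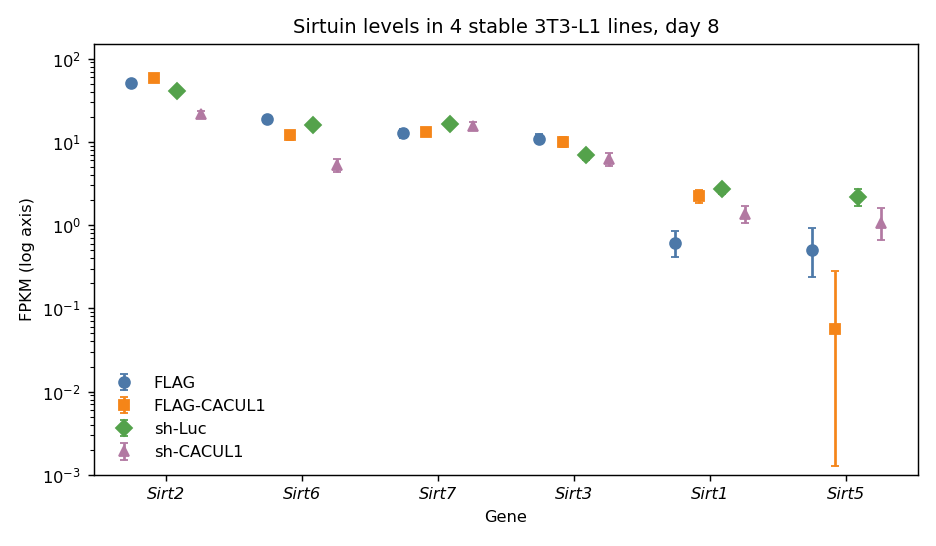
Level of each sirtuin gene (FPKM, log axis) in the 4 lines, 1 sample each, with 95% intervals for counting error at the estimated depth. Sirt2 lies highest in every sample, between 21.7 and 57.9 FPKM, Sirt5 lies lowest, and the Sirt5 point of FLAG-CACUL1 stands for about 1 fragment.

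The order of the levels below Sirt2 changed between the samples. In FLAG it was Sirt6, Sirt7, Sirt3, Sirt4, Sirt1 and Sirt5, and the intervals did not separate Sirt7 from Sirt3 (ratio 1.15, 0.967 to 1.37) or Sirt1 from Sirt5. In FLAG-CACUL1 and in sh-Luc Sirt7 stood before Sirt6, but the ratio of these neighbours was 1.10 (0.942 to 1.30) and 1.01 (0.906 to 1.12), which holds 1 in both. Sirt6 and Sirt3 were not separated in FLAG-CACUL1 either (1.19, 0.991 to 1.42). In sh-CACUL1 Sirt6 came after Sirt7, Sirt4 and Sirt3, although neither Sirt4 and Sirt3 (1.21, 0.970 to 1.53) nor Sirt3 and Sirt6 (1.18, 0.923 to 1.51) were separated. Only in FLAG-CACUL1 were Sirt1 and Sirt5 separated beyond counting error.

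In FLAG-CACUL1 against FLAG, Sirt1 was the 1 gene of 6 that passed the 2-fold cut-off on log2(FPKM + 1), where 14.7% of all 13085 genes passed in either direction. Its log2 ratio was 1.02 (0.75 to 1.26), close to the cut-off, and 14.2% of genes had a larger absolute ratio. The added 1 FPKM understates the ratio of low genes such as Sirt1 and Sirt5. Sirt6 had a log2 ratio of -0.60 (-0.80 to -0.41) and Sirt5 of -0.51 (-0.62 to -0.11). Sirt2 had 0.19, Sirt7 0.06 and Sirt3 -0.11, and for both of the latter the interval held 0. The median of the 6 genes was -0.02 and that of all genes 0.09, with 3 sirtuins higher and 3 lower. The Sirt1 ratio was 0.92 after quantile normalization and 0.94 after median-of-ratios scaling, below the cut-off, and Sirt7 turned to -0.01 and -0.06 under the same scalings. Against sh-Luc, the other control, the Sirt1 ratio was -0.19 (-0.42 to 0.04), so the difference depended on which control was used.

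In sh-CACUL1 against sh-Luc, Sirt6 was the 1 gene of 6 past the cut-off, where 21.3% of all genes passed. Its log2 ratio was -1.46 (-1.69 to -1.23), and 8.87% of genes had a larger absolute ratio. It stayed past 2-fold in all 7 other settings of scaling, filter, pseudocount and row, from -1.62 to -1.03, and was -1.66 against FLAG. The filter and the choice of row could not move this ratio, because Sirt6 has 1 row and a filter changes no kept value. On this scale it did not reach 3-fold against sh-Luc, although it did so with a pseudocount of 0.1 FPKM or none, and against FLAG. Sirt2 had a log2 ratio of -0.89 (-1.03 to -0.76), Sirt1 of -0.65 (-0.88 to -0.42) and Sirt5 of -0.62 (-1.02 to -0.22). Sirt3 at -0.14 and Sirt7 at -0.05 had intervals that held 0. As deposited all 6 genes were lower, but so was the median of all genes, at -0.30, against -0.63 for the sirtuins. Relative to the median of all genes, Sirt6 stood at -1.15, Sirt2 at -0.59, Sirt1 at -0.35, Sirt5 at -0.32, Sirt3 at 0.16 and Sirt7 at 0.26. Quantile normalization moved the median of all genes to -0.01 and median-of-ratios scaling to 0.01, and under either of them Sirt3 and Sirt7 were higher in sh-CACUL1 while Sirt6 stayed past 2-fold lower. After these scalings, in that order, Sirt2 had -0.53 and -0.43, Sirt1 -0.32 and -0.34, and Sirt5 -0.32 and -0.33. As deposited Sirt4 had 0.60 (0.35 to 0.86), the reverse direction to Sirt6.

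**Figure D2:**
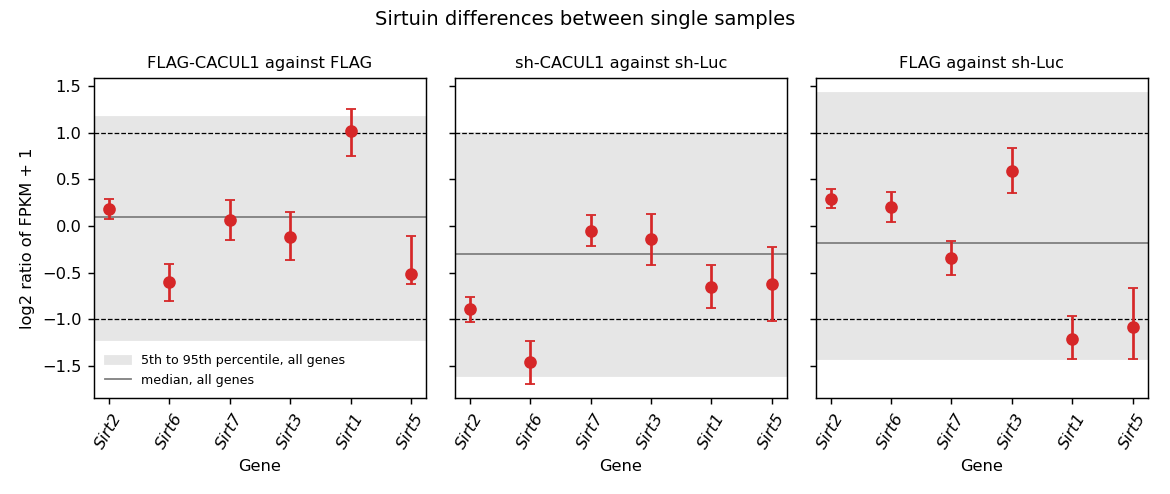
Log2 ratio of FPKM + 1 of each sirtuin gene for FLAG-CACUL1 against FLAG, sh-CACUL1 against sh-Luc and FLAG against sh-Luc, 1 sample each, with 95% counting intervals. The grey band spans the 5th to 95th percentile of all genes, the grey line their median and the dashed lines the 2-fold cut-off, which Sirt1 passes on the left, Sirt6 in the middle and Sirt1 and Sirt5 on the right.

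The controls also differed. In FLAG against sh-Luc, 2 of the 6 genes passed the cut-off, Sirt1 at -1.21 (-1.42 to -0.97) and Sirt5 at -1.08 (-1.42 to -0.67), where 21.0% of all genes passed in either direction and 12.4% were lower. Sirt3 had 0.59, Sirt2 0.29, Sirt6 0.20 and Sirt7 -0.34. The gap in Sirt1 between these controls was as wide as that between FLAG-CACUL1 and FLAG, with intervals that overlapped in size. In FLAG-CACUL1 against sh-Luc, where 9.90% of all genes passed and 4.87% were lower, Sirt5 alone did so, at -1.59. In sh-CACUL1 against FLAG, where 22.9% passed and 15.4% were lower, Sirt6 did so and also Sirt2, at -1.19. Sirt1 and Sirt5 were higher in sh-CACUL1 than in FLAG, at 0.55 and 0.46, but lower than in sh-Luc. These comparisons share samples with those above and add no independent values.

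**Figure D3:**
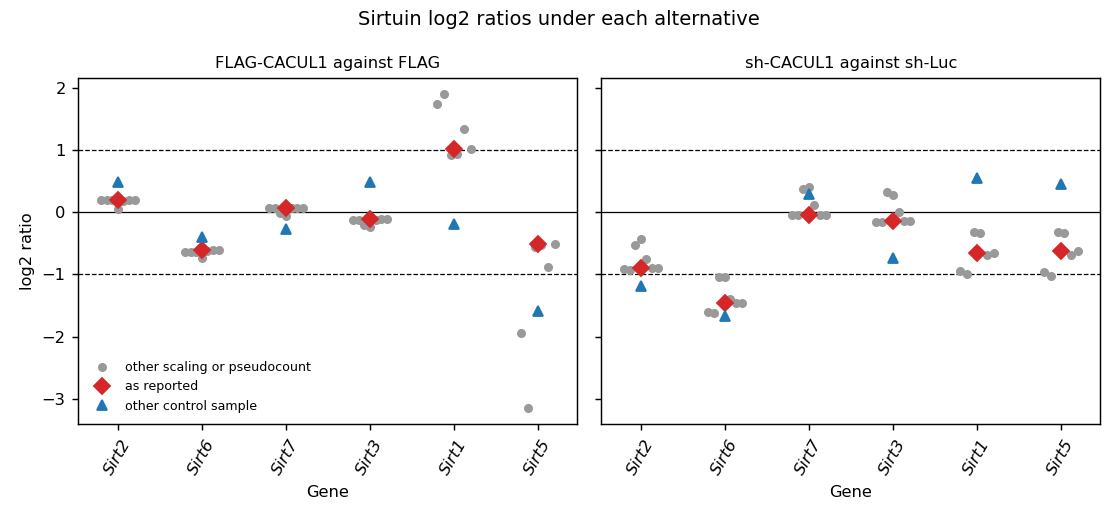
Log2 ratio of each sirtuin gene as reported (red diamonds), under 6 or 7 other choices of scaling, pseudocount, filter or row (grey circles) and with the other control sample (blue triangles). The filter and row choices could not change a ratio. Sirt6 in sh-CACUL1 stays below the lower dashed 2-fold line throughout, whereas Sirt1 in FLAG-CACUL1 goes from 1.02 to -0.19 when sh-Luc is the control.

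For the genes with the widest log2 range, Sirt6 (1.66) and Sirt5 (1.59), the nearest profiles were sought by Euclidean distance between centred log2(FPKM + 1) values over the 4 samples. Nearest to Sirt6 among 10832 other genes were Triobp (distance 0.12), Tsc22d2 (0.12) and Tcaf1 (0.13). Triobp had 43.7 and 31.6 FPKM in FLAG and FLAG-CACUL1 and 41.4 and 13.6 FPKM in sh-Luc and sh-CACUL1, low in sh-CACUL1 as Sirt6 was. Nearest to Sirt5 were Mcm7 (0.11), Cenpn (0.18) and Birc5 (0.19). Mcm7 had 11.4, 7.44, 24.2 and 14.4 FPKM in the same order, highest in sh-Luc and lowest in FLAG-CACUL1. With 4 points such nearness is a description only, and the nearest sirtuin to Sirt6 was Sirt2, at 0.71.

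The classical zinc-dependent histone deacetylases, which need no NAD, give the other deacetylase family of these cells. Of 11 measured, 1 was past 2-fold lower in FLAG-CACUL1 (Hdac5) and none higher, where 7.22% of all genes were lower. In sh-CACUL1 against sh-Luc 4 were lower (Hdac2, Hdac4, Hdac5 and Hdac11) and none higher, where 16.4% of all genes were lower. Hdac5 was low in both lines with altered CACUL1, at -1.45 and -1.03. The medians of the list were 0.08 and -0.65, beside -0.02 and -0.63 for the sirtuins.

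NAD itself was not measured. The list of NAD synthesis and clearance holds genes of both directions, so its counts and medians give no direction of supply. In all, 12 such genes were measured. In FLAG-CACUL1 3 of them were past 2-fold lower (Nampt, Nadk2 and Slc25a51) and none higher, where 7.22% of all genes were lower. In sh-CACUL1 1 was lower (Pnp) and none higher, where 16.4% of all genes were lower. Nampt, the rate-limiting enzyme of NAD salvage, had 83.3 FPKM in FLAG and 35.9 in FLAG-CACUL1, against 45.4 in sh-Luc and 61.1 in sh-CACUL1. Its log2 ratios were -1.19 and 0.42 in the comparisons of FLAG-CACUL1 and sh-CACUL1. The samples rich in adipocyte markers had more Nampt and less Sirt1. Of all genes, 9.93% were higher in those samples as Nampt was, and 31.5% were lower as Sirt1 was. The list medians were -0.49 and 0.20. Among 17 other NAD-consuming enzymes, FLAG-CACUL1 had 1 past 2-fold higher (Parp8) and 2 lower (Parp6 and Parp16), where 7.51% of all genes were higher and 7.22% lower. The sh-CACUL1 sample had 4 lower (Parp4, Parp8, Parp14 and Tnks) and none higher, where 16.4% of all genes were lower. Parp8, an ADP-ribosyltransferase, passed in both at 1.26 and -1.74, and the list medians were 0.16 and -0.17.

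Of 12 regulators of SIRT1, 3 were past 2-fold higher in FLAG-CACUL1 (Rps19bp1, Hic1 and Ctbp1) and none lower, where 7.51% of all genes were higher. In sh-CACUL1 4 were lower (Ctbp1, Foxo3, Usp22 and Trp53) and none higher, where 16.4% of all genes were lower. Ctbp1, a corepressor that acts with HIC1 on the Sirt1 gene, had 30.9 FPKM in FLAG and 67.4 in FLAG-CACUL1, against 75.0 in sh-Luc and 36.9 in sh-CACUL1. It passed in both comparisons, at 1.10 and -1.005. Like Sirt1, it was lower in FLAG and sh-CACUL1 than in FLAG-CACUL1 and sh-Luc. That held for 31.5% of all genes and for 5 of the 12 listed, and a relation to Sirt1 was not tested. Ccar2, the inhibitor known as DBC1, was nearly level at -0.04 and -0.06. The list medians were 0.37 and -0.79. The list mixes genes that act on SIRT1 in unlike ways, so its counts and medians give no direction for SIRT1. It also holds Cacul1, the targeted gene, whose ratios of 0.27 and -0.82 enter both medians.

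Among 22 nuclear and cytosolic substrates and partners, FLAG-CACUL1 had 7 past 2-fold lower and none higher, where 7.22% of all genes were lower. In sh-CACUL1 4 were higher (Pparg, Acss2, Nr1h3 and Cebpa) and 5 lower (Ep300, Foxo3, Trp53, Arntl and Hif1a), where 4.94% and 16.4% of all genes were higher and lower. Those 4 were also among the 7 lower in FLAG-CACUL1, and Pparg and Cebpa belong to the adipocyte markers as well. Foxo1, Foxo3 and Trp53 are also in the list of SIRT1 regulators, so these lists are not separate sets. Pparg, the adipogenic nuclear receptor, had log2 ratios of -2.42 and 2.00, and Nr1h3, the liver X receptor alpha, -1.62 and 4.41. Acss2, a cytosolic acetyl-CoA synthetase activated by SIRT1, had -2.21 and 1.77, and Cebpa, an adipogenic transcription factor, -1.98 and 1.48. Kdm1a, the histone demethylase LSD1, had -0.17 and -0.50. The list medians were -0.25 and -0.45.

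Among 16 mitochondrial substrates, FLAG-CACUL1 had 1 past 2-fold higher (Aldh2) and 1 lower (Ndufa9), where 7.51% of all genes were higher and 7.22% lower. The sh-CACUL1 sample had 1 higher (Ppif) and none lower, where 4.94% of all genes were higher. The list medians were -0.41 and 0.52, with 13 of 16 higher in sh-CACUL1 at any size, where 31.3% of all genes were higher.

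**Figure D4:**
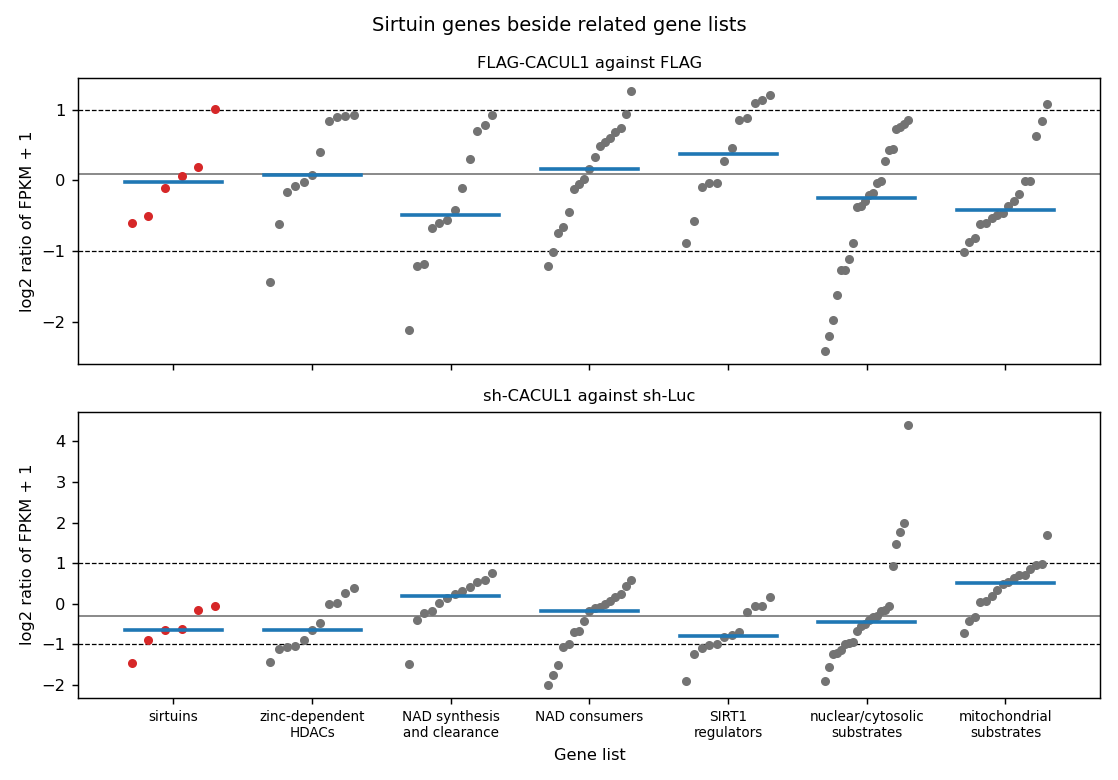
Log2 ratio of FPKM + 1 of the 6 sirtuin genes (red) and of the genes in 6 related lists (grey) for both main comparisons, 1 sample per line. Blue bars are list medians, the thin grey line is the median of all genes (0.09 and -0.30) and dashed lines mark 2-fold. The sirtuin median is -0.02 above and -0.63 below, and the widest points are among the nuclear and cytosolic substrates, where Nr1h3 reaches 4.41.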

How the data were processed

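RNA of 4 groups of stable 3T3-L1 cells was sequenced after 8 days of differentiation, 1 sample per group. The authors deposited FPKM for 13110 rows per sample, each named by RefSeq transcripts. Libraries were prepared and sequenced by a company, and the submitters' processing notes name the build mm10. The aligner, the program behind FPKM, strandedness and any filter are not given in the sources used here.

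Rows were joined to symbols through GENCODE M21 (GRCm38) and summed per symbol, which left 13085 genes. Of the rows, 191 had no symbol and 8 had several. Differences are log2 ratios of FPKM with a pseudocount of 1, and a gene counted as past the cut-off at 2-fold. With 1 sample per group no test was made and no p-value is given. Depth came from FPKM times length in rows of at least 3000 bases, where 72.5% to 78.9% of 229 to 265 low values lay within 0.2 of a whole number of fragments. Intervals are exact Poisson intervals for levels and exact binomial (Clopper-Pearson) ones for ratios. They cover counting error only.

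The sirtuin genes and all lists were chosen with earlier results of these data known. A gene of the mitochondrial substrate list is not reported here and was left out of that list's counts and median. Named by rule were the sirtuins, Cacul1, Pparg, Kdm1a, Nampt, Ccar2, up to 4 genes per list past 2-fold in both main comparisons with at least 1 FPKM in a sample, and the 3 nearest profiles of the 2 sirtuins with the widest range. The other genes listed beside counts, and the order of samples seen in Sirt1, were chosen after their values were seen. Promoter windows are RefSeq's on GRCm38.p6. The 10 alternatives were other pseudocounts, scalings, filters, rows, cut-offs and the other control. The scripts were tested on simulated data. Python 3.11.15, numpy 2.4.6, pandas 2.3.3, scipy 1.17.1 and matplotlib 3.10.9 were used.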

Additional observations from a re-analysis of the deposited data

How the results depend on the processing

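The count of sirtuin genes past 2-fold moved with the processing. In FLAG-CACUL1 against FLAG it was 1 as reported, 2 with a pseudocount of 0.1 FPKM, without a pseudocount or at a 1.5-fold cut-off, and 0 after quantile normalization, median-of-ratios scaling, a filter of 1 FPKM in all 4 samples or a 3-fold cut-off. With the other control the count was 1 as well, but the gene was Sirt5. In sh-CACUL1 against sh-Luc it was 1 as reported, 2 without a pseudocount or with the other control, 4 at 1.5-fold and 0 at 3-fold. In FLAG against sh-Luc it was 2 as reported, 3 at 1.5-fold, 1 after median-of-ratios scaling and 0 after quantile normalization, the filter or 3-fold. The filter removed Sirt1 and Sirt5, and the cause of the other moves was not tested. The log2 ratio of Sirt1 in FLAG-CACUL1 reversed to -0.19 with the other control. Below the cut-off, Sirt1 and Sirt5 in sh-CACUL1 also turned with the other control, to 0.55 and 0.46, as did Sirt3 (0.48) and Sirt7 (-0.28) in FLAG-CACUL1 and Sirt7 (0.29) in sh-CACUL1. Quantile and median-of-ratios scaling turned Sirt3 (0.32 and 0.27) and Sirt7 (0.38 and 0.40) in sh-CACUL1 and Sirt7 (-0.01 and -0.06) in FLAG-CACUL1, and rescaling FPKM to a common sum turned Sirt7 in sh-CACUL1 (0.11). Of the other values of single sirtuins, 85 lay within the counting interval of the reported one and 46 outside it. The 85 include all values under the filter and the row setting, which could not differ from the reported ones. Values with another pseudocount or none are on another scale than that interval. Values with the other control belong to another comparison, so the split into 85 and 46 is a description only. Over all genes 1928, 2788 and 2750 passed in the 3 comparisons, against 3775, 4799 and 4711 without a pseudocount, 3161, 4163 and 4120 with 0.1 FPKM, 4494, 5809 and 5629 at 1.5-fold, and 663, 936 and 994 at 3-fold. Of those in sh-CACUL1, 647 were higher and 2141 lower as deposited, 1178 and 1084 after quantile normalization, and 1231 and 975 with median-of-ratios scaling. For FLAG-CACUL1 these splits were 983 and 945, 831 and 1020, and 755 and 1169, and in FLAG against sh-Luc 1123 and 1627, 1345 and 1143, and 1565 and 937. Depth limits Sirt5 most, since its level in FLAG-CACUL1 stands for about 1 fragment. No paired analysis was possible because each group had 1 sample and shared only 1 replicate number.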

Other observations

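The remaining genes that the rule named belong to the marker lists and are given as values. Among the adipocyte markers, those with the widest smaller ratio of the 2 comparisons were Cfd, adipsin, at -7.81 in FLAG-CACUL1 against FLAG and 5.90 in sh-CACUL1 against sh-Luc on the log2(FPKM + 1) scale, Retn, resistin, at -4.02 and 6.53, Cidec, a lipid droplet protein, at -5.72 and 4.01, and Fabp4, the fatty acid binding protein of adipocytes, at -3.96 and 3.62. Of the preadipocyte markers, Pdgfra and Pdgfrb were higher in FLAG-CACUL1 (1.58 and 1.67) and lower in sh-CACUL1 (-1.77 and -2.87), Thy1 was higher in both (1.74 and 4.41), and Dlk1 had -1.28 and 4.19. Dlk1 was at 0.22 FPKM and Thy1 at 0.663 FPKM in sh-Luc, against 21.2 to 97.2 FPKM and 34.3 to 144 FPKM in the other samples. Lyz2, a macrophage marker, had 8.12 FPKM in FLAG and 66.5 in FLAG-CACUL1, against 5.03 in sh-Luc and 1.72 in sh-CACUL1, while Ptprc, Adgre1 and Itgam were not among the genes analysed here. The part of these differences in those of the sirtuin genes was not tested.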
